A study of Saccharum hybrid cultivar with 12 samples.

Results

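In sugarcane stalk, 21 of 163054 assembled transcripts (unigenes) met a rule for lower levels after an ethephon spray than after a water spray in each of 3 cultivars. The rule asks for a minimum level and a minimum ratio, so unigenes that fell by less are not counted. A unigene is the longest transcript of one subcomponent of a de novo assembly and stands for a gene or part of one. The 21 were chosen from the counts themselves. Each count was divided by its library total and scaled to a common total of 1000000 (CPM), and a unigene was kept when, in each cultivar, the lower of the 2 water replicates was at least 1 CPM and was at least 1.5 times the higher of the 2 ethephon replicates, with 0.1 CPM added to both. Members were ranked by the smallest of their 3 ratios, the limit of 200 members was not reached, and none of the 94 unigenes that the study names by its identifier met the rule. Because the ethephon contrast chose these unigenes, their difference between water and ethephon is described here and carries no test.

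HS was ROC22, a commercial cane with much sugar, given as 15.0% sucrose. MS was YT71-210, a non-commercial clone given as 12.6%. LS was GT86-887, also non-commercial and the poorest in sugar, given as 6.0%. Plants were field grown, 8 months old and at an early stage of sucrose accumulation. Leaves were sprayed until run-off with water (CK) or with a solution of 400 mg/L ethylene prepared from ethephon (T), and developing stalk 20 cm above the sampled leaf node was taken 7 days later. Poly(A) RNA of 2 biological replicates per group gave 12 libraries in 6 groups, with totals of 19765594 to 28747056 assigned counts. Each cultivar is a single clone, the field plot was the experimental unit of the study, and how plants and plots were drawn for the 2 sequenced replicates is not given in the sources used here. Genotype and the sugar class it stands for cannot be told apart with 1 clone per class.

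Ethephon is taken up by leaves and breaks down in plant cells to release ethylene, a gaseous hormone. Ethylene is sensed by receptors in the endoplasmic reticulum membrane, and when it binds, a kinase that holds the pathway off is relieved and EIN3-type transcription factors accumulate and switch on ethylene response factor genes. In cane the compound is sprayed as a ripener, since it can slow internode growth while sucrose builds up in the stalk. Transcripts can fall under ethylene as well as rise, and a fall in a whole-tissue library can come from fewer cells of a type or from less RNA per cell, which cannot be told apart here. The tables pair no gene name or function with the 21 identifiers, so their roles are not given, and the stalk identity of the tissue was not checked against marker genes.

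The rule was met by 198 unigenes in HS, 750 in MS and 2756 in LS, each cultivar taken alone. In pairs it was met by 33 unigenes in HS and MS, 87 in HS and LS and 150 in MS and LS. HS was thus the cultivar that limited the list most. Because the rule takes the lower water and the higher ethephon replicate, leaving out a library can only keep or raise the number. Without an HS_CK library the number in all 3 cultivars was 46 (replicate 1) or 38 (replicate 2). It was 39 when replicate 2 of MS_CK was dropped and 34 when replicate 1 of MS_T was. The same rule turned round, for unigenes higher after ethephon in all 3 cultivars, was met by 90 unigenes. Of all unigenes, 25770 reached the minimum of 1 CPM under water in all 3 cultivars.

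Across the 21 members, the mean CPM after ethephon was a median of 41.8% of that under water in HS, with a range of 4.87 to 60.9%. The median was 33.3% in MS, with a range of 2.16 to 58.5%, and 29.2% in LS, with a range of 0.274 to 51.0%. Over the 25770 unigenes above the water minimum the same medians were 98.9% in HS, 105% in MS and 90.9% in LS. The fall was deepest in LS for 13 members, in MS for 5 (c77203_g1, c93067_g1, c82358_g1, c97264_g4 and c82784_g1) and in HS for 3 (c97931_g2, c95770_g4 and c84998_g1). All 6 ethephon libraries lay under all 6 water libraries in 11 members, against 0.265% of the 54433 unigenes tested, a count that the rule itself favours. In the other 10 the groups separated within each cultivar, as the rule requires, while levels differed enough between cultivars for the ranges to meet.

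**Figure D1:**
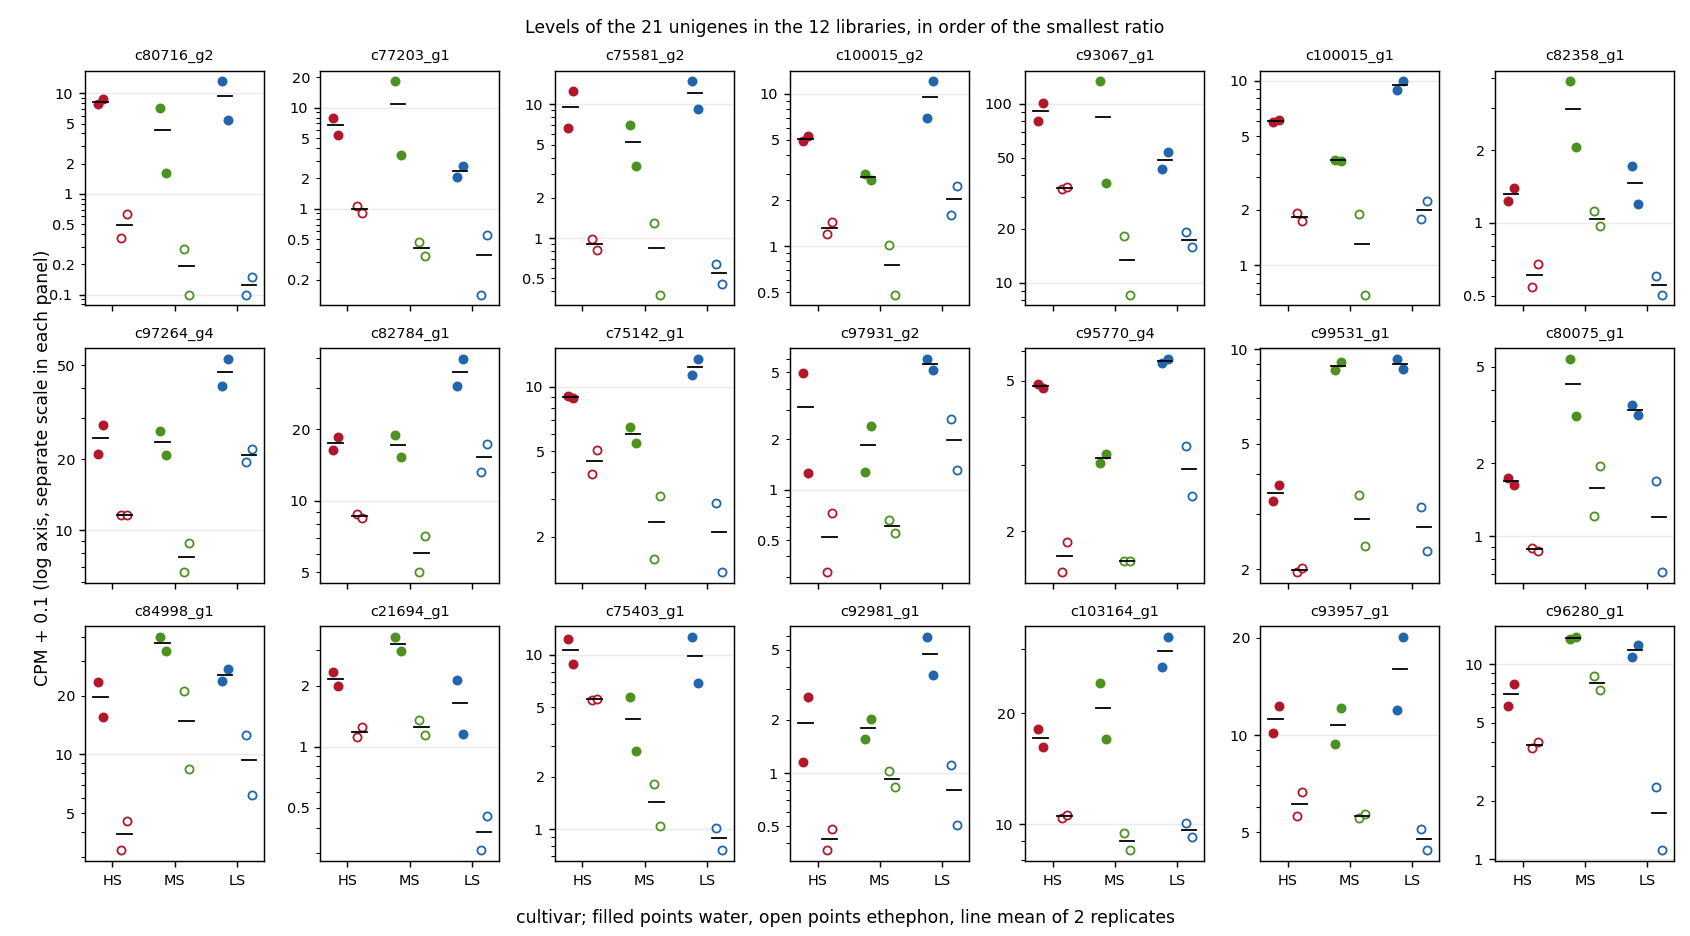
Level of each of the 21 unigenes in the 12 libraries, as CPM + 0.1 on a log axis with its own scale in each panel, for HS (red), MS (green) and LS (blue). Filled points are water, open points ethephon, and the short line is the mean of 2 replicates; open points lie under filled points of the same cultivar in every panel because the rule asked for it.

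3 members had the largest smallest ratios. The unigene with the largest smallest ratio, 5.62, was c80716_g2. Its water libraries held 7.65 and 8.61 CPM in HS, 7.04 and 1.4997 in MS, and 13.1 and 5.38 in LS, and its ethephon libraries 0.264 and 0.527, 0.185 and 0, and 0 and 0.0506. It was the only member with an ethephon library at 0. The LS ethephon libraries together held 1 count of it against 413 counts under water, which is 0.2497% of the water level with an exact 95% interval of 0.00631 to 1.40%. In MS the figures were 4 and 176 counts, or 1.89% with an interval of 0.508 to 4.91%. These intervals pool the 2 replicates of a group and cover counting error only, so they leave out the spread between replicates. In MS the water replicates held 144 and 32 counts. The reads carried no molecular identifiers.

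The second, c77203_g1, had 7.82 and 5.32 CPM under water in HS, 18.1 and 3.33 in MS and 1.98 and 2.54 in LS. After ethephon it had 0.969 and 0.815 in HS, 0.370 and 0.244 in MS and 0.0418 and 0.455 in LS. Its smallest ratio was 3.75, in LS, where its water level was lowest. The third, c75581_g2, had 6.56 and 12.5, 6.94 and 3.37, and 14.7 and 9.19 CPM under water in HS, MS and LS, and 0.881 and 0.719, 1.20 and 0.278, and 0.544 and 0.354 after ethephon. No ethephon library of either unigene reached its lowest water library.

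A pair of members, c100015_g2 and c100015_g1, came from 1 Trinity component, which groups transcripts that share sequence, so they may be parts or copies of 1 gene. The first had 4.79 and 5.18 CPM under water in HS, 2.88 and 2.62 in MS and 6.85 and 11.99 in LS, and 1.10 and 1.34, 0.924 and 0.383, and 1.51 and 2.38 after ethephon. The second had 5.89 and 6.02, 3.62 and 3.56, and 8.79 and 9.80 CPM under water, and 1.81 and 1.63, 1.80 and 0.591, and 1.67 and 2.12 after ethephon. Both were highest in LS and lowest in MS under water and kept that order of means after ethephon. They were the only members of the 21 that shared a component, and how the reads of the component were divided between them is set by the authors' alignment.

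The most abundant member per unit of length was c93067_g1, with a mean over the 6 water libraries of 67.8 FPKM (fragments scaled to transcript length and library size), rank 2481 of all unigenes under water. Its water libraries held 80.6 and 101 CPM in HS, 134 and 36.1 in MS and 43.3 and 53.9 in LS. Its ethephon libraries held 33.2 and 34.2, 18.2 and 8.45, and 19.0 and 15.6. The 2 MS water replicates were further apart than any ethephon replicate was from its partner, and the lower of them was close to the HS ethephon libraries. Next in FPKM under water came c97264_g4 with 43.1, c82784_g1 with 42.7 and c100015_g1 with 36.1. The least abundant was c92981_g1 with 1.53 FPKM, so the members spanned a wide range of levels, and no member ranked above c93067_g1.

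Of all 210 pairs of members, c97264_g4 and c82784_g1 moved together most closely, although they belong to different components. Under water c97264_g4 had 29.3 and 38.3 FPKM in HS, 35.8 and 28.6 in MS and 55.0 and 71.6 in LS, and c82784_g1 had 30.04 and 33.8, 36.6 and 28.6, and 55.0 and 72.1. After ethephon c97264_g4 had 15.8 and 15.8, 8.99 and 12.4, and 26.6 and 28.98 FPKM, and c82784_g1 had 16.7 and 15.3, 10.4 and 14.4, and 24.5 and 31.4. Library by library the 2 levels per length were close to equal, in both treatments and all cultivars. The log2 ratio of their CPM had an SD of 0.08 over the 12 libraries, against a median of 1.01 over all pairs, and the ratio itself ran from 1.24 to 1.499. A few of their counts are not whole numbers (2 libraries of c97264_g4, 1 of c82784_g1), which the alignment gives when reads fit several unigenes. Whether the 2 are pieces of 1 transcript was not tested, since no sequence was used here.

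**Figure D2:**
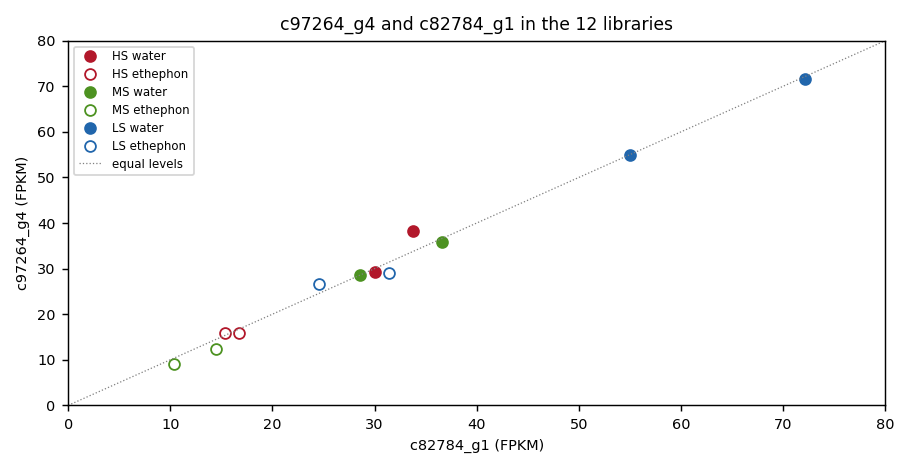
Level of c97264_g4 (vertical, FPKM) against c82784_g1 (horizontal, FPKM) in the 12 libraries, filled for water and open for ethephon, with a dotted line of equal levels. The points follow the line from 10.4 and 8.99 FPKM in an MS ethephon library to 72.1 and 71.6 FPKM in an LS water library.

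The next closest pair was c103164_g1 and c93957_g1, with an SD of 0.28, followed by the component pair c100015_g2 and c100015_g1 with 0.32. The first of these pairs joins different components. For c103164_g1 the water libraries held 18.0 and 16.1 CPM in HS, 24.1 and 17.0 in MS and 26.6 and 32.2 in LS, and the ethephon libraries 10.3 and 10.5, 9.38 and 8.38, and 9.96 and 9.11. After ethephon the 6 libraries of this unigene lay within a narrow band, whatever the level under water had been. For c93957_g1 the water libraries held 10.1 and 12.2, 9.29 and 12.04, and 11.9 and 20.05 CPM, and the ethephon libraries 5.51 and 6.57, 5.45 and 5.60, and 5.02 and 4.30. By mean c93957_g1 was lowest after ethephon in LS, where it was highest under water, while c103164_g1 was lowest in MS.

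Among the remaining members of rank 7 to 10, c82358_g1 was low throughout, with 1.14 and 1.30 CPM under water in HS, 3.76 and 1.97 in MS and 1.62 and 1.09 in LS, and 0.441 and 0.575, 1.02 and 0.870, and 0.502 and 0.405 after ethephon. c75142_g1 had 8.95 and 8.75, 6.40 and 5.39, and 11.3 and 13.3 CPM under water and 3.83 and 4.99, 1.48 and 2.99, and 2.76 and 1.26 after ethephon. It was highest in LS under water and lowest there by mean after ethephon. Another member with a high water level, c84998_g1, had 23.5 and 15.5 CPM in HS, 39.9 and 34.0 in MS and 23.6 and 27.3 in LS under water, and 3.13 and 4.46, 21.1 and 8.28, and 12.4 and 6.12 after ethephon. Its fall was deepest in HS, to 19.5% of water.

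In 3 members of middle rank the ranges of the treatments met across cultivars. c97931_g2 had 4.83 and 1.16 CPM in HS, 1.17 and 2.30 in MS and 5.91 and 5.08 in LS under water, and 0.2203 and 0.623, 0.555 and 0.452, and 2.55 and 1.21 after ethephon. c95770_g4 had close replicates, with 4.79 and 4.68, 2.93 and 3.09, and 5.46 and 5.60 CPM under water and 1.45 and 1.77, 1.57 and 1.57, and 3.26 and 2.38 after ethephon. c80075_g1 had 1.64 and 1.53, 5.28 and 3.05, and 3.38 and 3.06 under water and 0.793 and 0.767, 1.11 and 1.84, and 1.59 and 0.607 after ethephon. In these 3 unigenes an ethephon library of one cultivar was as high as a water library of another. c92981_g1 had 1.05 and 2.59, 1.47 and 1.92, and 5.82 and 3.50 CPM under water and 0.264 and 0.384, 0.924 and 0.731, and 1.004 and 0.405 after ethephon, and its ranges did not meet.

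The last members inside the ratio limit were c93957_g1 at 1.53 and c96280_g1 at 1.52, and the first unigenes outside it were c97447_g2 at 1.499 and c73783_g1 at 1.498. For c97447_g2 the limiting ratio was in HS, with 48.9 and 35.8 CPM under water and 23.6 and 23.8 after ethephon. Its other values were 62.4 and 56.2 against 36.5 and 23.9 in MS, and 60.5 and 54.0 against 19.7 and 20.996 in LS. The step from the last member to the first unigene outside was small. The unigene nearest to the CPM minimum from below, c75253_g1, met the ratio in every cultivar and had 0.844 CPM in its lower MS water library.

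Replicates of the members were less alike than those of other unigenes above the water minimum in 5 of the 6 groups. The median size of the log2 difference between the 2 replicates was 0.37 over the members in MS_CK, against 0.19 over the 25770 unigenes, 0.51 against 0.24 in MS_T, 0.34 against 0.13 in LS_CK, 0.50 against 0.27 in LS_T and 0.22 against 0.16 in HS_T. In HS_CK it was 0.22 against 0.24. The 2 sets were not matched for level. The median mean CPM under water was 7.21 over the members and 11.4 over the 25770 unigenes, and that of the members after ethephon was 2.00. The part of level in these replicate differences was not tested. Summed over the 21 members, the MS water libraries held 343 CPM in replicate 1 and 195 in replicate 2, while the other water sums were 248 and 271 in HS and 290 and 325 in LS. The ethephon sums were 96.2 and 102 in HS, 91.5 and 67.9 in MS and 101 and 90.3 in LS. Whether replicate 1 of MS_CK differed from its partner in tissue or stage was not tested.

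In the model fitted over all unigenes (edgeR's quasi-likelihood test, called at a Benjamini-Hochberg adjusted p under 0.005 and a change over 2-fold), 0 members were called lower in HS and 0 in MS, where the share over all 54433 tested unigenes was also 0%. At an unadjusted p under 0.05, 21 members were lower in HS, beside 1.78% of all unigenes, and 20 in MS, beside 5.83%, and DESeq2's Wald test called 6, beside 0.0459%, and 12, beside 0.524%. In LS, 8 members were called lower, against 0.321% of all unigenes. For the mean over the 3 cultivars 19 were called, all but c97931_g2 and c80075_g1, against 0.198% of all unigenes. These shares are set by the choice of members and nothing is read from them. With 1 LS library left out, fewer members were called lower in LS, as were fewer of all tested unigenes. The same held for the mean contrast with any library left out. Such a fit leaves 1 library in a group, so the fewer calls are not read as a trait of the members. The members' median fitted log2 fold change in LS ran from -1.98 to -1.62 over the fits without an LS library.

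The median fitted log2 fold change over the members was -1.24 in HS, -1.67 in MS and -1.69 in LS, beside medians over all tested unigenes of 0.00, 0.00 and -0.08. 5 members are named from LS by their place in this fit, which the choice of members used, so their values are a description. They were c96280_g1, c103164_g1, c75403_g1, c75142_g1 and c75581_g2, with fitted log2 fold changes of -2.73 ± 0.30 (SE), -1.54 ± 0.18, -3.52 ± 0.45, -2.52 ± 0.34 and -4.62 ± 0.64.

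**Figure D3:**
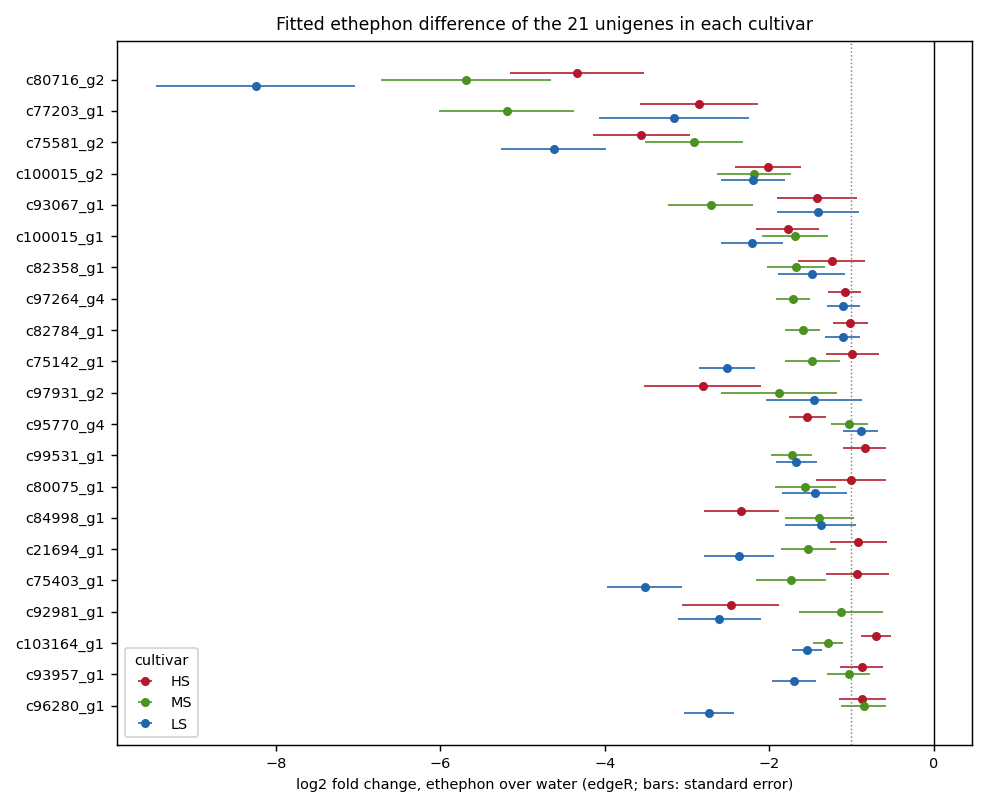
Fitted log2 fold change of ethephon over water for the 21 unigenes in HS (red), MS (green) and LS (blue), with standard errors from edgeR as bars; the solid line is no change and the dotted line a 2-fold fall. All points lie left of 0 as the rule requires, from -0.70 (c103164_g1 in HS) to -8.25 (c80716_g2 in LS).

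The pattern was also read where the choice had not been made. The same rule was applied to 2 cultivars only, and the unigenes so chosen were read in the 4 libraries of the third. Of the 33 unigenes chosen in HS and MS, all 33 had a lower mean after ethephon in LS, beside 61.4% of all tested unigenes, and in 30 (90.9%) both ethephon libraries lay under both water libraries. The share of such separated unigenes over all tested unigenes was 38.7% in LS, and 41.5% over the 26770 that met the water minimum in HS and MS. The median log2 change in LS was -1.47, with an SD of 0.18 over the 4 pairings of a water with an ethephon library, against -0.16 over all tested unigenes. edgeR called 8 of the 33 lower in LS, beside 0.321% of all tested unigenes. When HS_CK replicate 1 was left out of the choice, 136 unigenes were chosen and their median in LS was -0.48.

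Of the 87 unigenes chosen in HS and LS, 73 had a lower mean after ethephon in MS, beside 39.4% of all tested unigenes, and 53 (60.9%) were separated, against 16.1% of all tested unigenes. The median log2 change in MS was -0.73 (SD 0.16) against 0.06, and -0.47 when HS_CK replicate 2 was left out of the choice. Of the 150 chosen in MS and LS, 128 had a lower mean in HS, beside 50.1%, and 74 (49.3%) were separated, against 14.9%. The median log2 change in HS was -0.42 (SD 0.12) against 0.00. edgeR called 0 of these unigenes lower in MS and 0 in HS, where it called 0% of all tested unigenes lower. At an unadjusted p under 0.05, 49 of the 87 were lower in MS, beside 5.83% of all tested unigenes, and 47 of the 150 in HS, beside 1.78%. Each of the 3 sets holds the 21 members, and the medians without them were -0.36 in HS, -0.49 in MS and -0.68 in LS. The median was thus below 0 in the cultivar not used in each case. Its order over the cultivars rested on 1 library, since without HS_CK replicate 1 the medians were -0.54 in HS, -0.67 in MS and -0.48 in LS, the smallest fall then being in LS. The differences between these medians were not tested and involve different sets of unigenes.

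**Figure D4:**
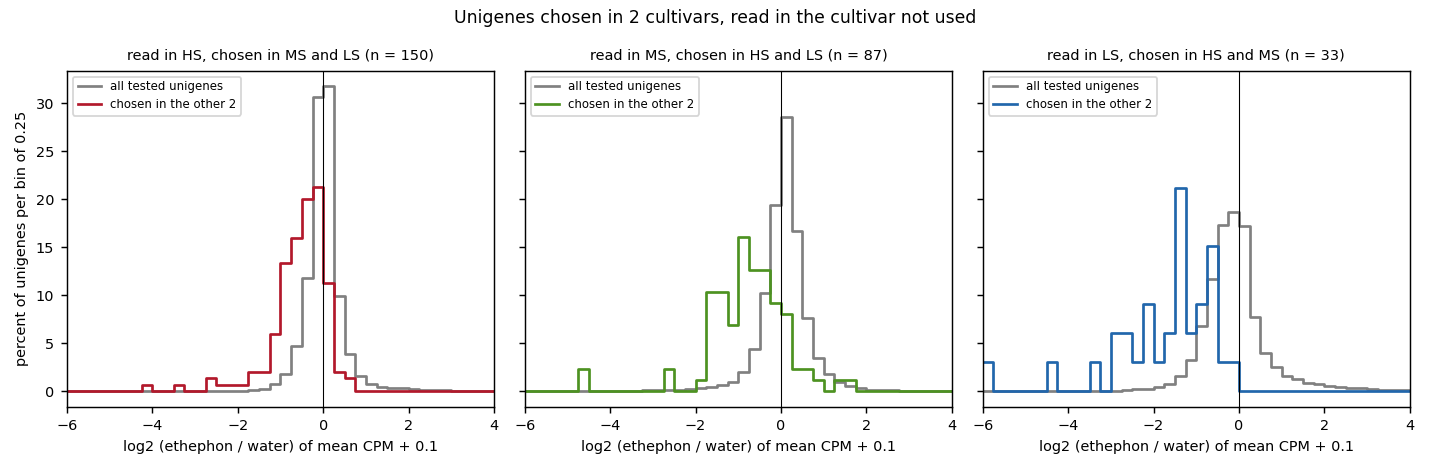
Distribution of the log2 ratio of ethephon over water (mean CPM + 0.1) in the cultivar that was not used to choose, for unigenes chosen in the other 2 (coloured) and for all tested unigenes (grey), as percent of unigenes per bin of 0.25, with values beyond the ends placed in the end bins. The coloured curves sit left of the grey ones, with medians of -0.42 in HS, -0.73 in MS and -1.47 in LS.

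The rule set no cultivar against another, but it used the same values that are compared here. Every member had at least 1 CPM under water in each cultivar. Each ethephon level was also held under the water level of its own cultivar. The shares over all tested unigenes given below include unigenes that the water minimum leaves out. The tests between cultivars are given with these limits. Under water the mean level was highest in LS for 13 members, in MS for 6 and in HS for 2, and lowest in MS for 12. Both LS libraries lay above both HS libraries in 13 members, against 46.5% of all tested unigenes, and both HS libraries above both LS libraries in 2, against 23.9%. Few members passed the threshold. With edgeR, 1 of 21 was called in HS against LS (beside 15.3% of all unigenes), 1 of 21 in HS against MS (beside 10.2%), and 0 in MS against LS (beside 13.4%), where 12 (beside 41.7%) were past an unadjusted p of 0.05 and DESeq2 called 2, beside 14.1%.

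The member called under water was c99531_g1 in both cases. It had 3.19 and 3.61 CPM in HS, 8.46 and 8.998 in MS and 9.20 and 8.53 in LS under water. The HS libraries lay well under the 4 others, and MS and LS overlapped. The fitted log2 fold change was -1.19 ± 0.24 (SE) for HS over LS, with an adjusted p of 0.00364, and -1.31 ± 0.24 for HS over MS, with an adjusted p of 0.00293 (edgeR). Neither call was kept at this threshold when 1 of the libraries compared was left out, where fewer of all unigenes were called too. Such a fit leaves 1 library in a group, so the loss is not read as a trait of c99531_g1. After ethephon the levels were 1.85 and 1.92 in HS, 3.33 and 2.26 in MS and 3.05 and 2.18 in LS, and both HS libraries were still under the 4 others. The log2 fold change was then -0.35 ± 0.27 for HS over LS (adjusted p = 0.335) and -0.42 ± 0.26 for HS over MS (adjusted p = 0.2497, edgeR), which were not past the threshold. The level after ethephon was 55.4% of water in HS, 32.0% in MS and 29.5% in LS.

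After ethephon the highest mean was in HS for 8 members, in MS for 7 and in LS for 6. Both HS libraries lay above both LS libraries in 10 members, against 28.2% of all tested unigenes. Both LS libraries lay above both HS libraries in 8, against 40.0%. The cultivar with the highest mean was not counted over all unigenes in either treatment. HS against LS gave 2 calls, both higher in HS, beside 14.5% of all unigenes called either way. HS against MS gave 1 call, higher in HS, beside 11.9%. MS against LS gave 3 calls, 2 lower and 1 higher in MS, beside 14.9%. These calls changed when 1 of the compared libraries was left out, where 4.48 to 9.83% of all unigenes were called. HS against LS gave 1 call, higher in HS, without replicate 1 of HS_T or of LS_T, and 0 without replicate 2 of either. HS against MS gave 0 calls without either HS_T library and 1 call higher in HS without MS_T replicate 1, but 1 call lower in HS without MS_T replicate 2. MS against LS gave 1 call higher in MS in each case, with 1 lower without MS_T replicate 1 or LS_T replicate 2 and 2 lower otherwise.

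The largest fitted difference among these calls, HS over LS, was in c75403_g1. This unigene had 12.3 and 8.75 CPM in HS, 5.62 and 2.72 in MS and 12.6 and 6.83 in LS under water. After ethephon it kept 5.42 and 5.51 CPM in HS but had 1.71 and 0.939 in MS and 0.921 and 0.658 in LS. HS and LS overlapped under water (log2 fold change 0.31 ± 0.37, adjusted p = 0.551), and after ethephon HS was above LS by 2.90 ± 0.46 on the log2 scale (adjusted p = 0.000857, edgeR) and above MS by 2.20 ± 0.43 (adjusted p = 0.00315). Both HS libraries were above both MS libraries under water too, by 1.39 ± 0.39 (adjusted p = 0.0220, edgeR), which DESeq2 put past the threshold (1.42, adjusted p = 0.00253). The level after ethephon was 52.0% of water in HS, 31.8% in MS and 8.13% in LS. Here and for the unigenes below, a call after ethephon without one under water does not show that the fall differed between cultivars. The rule used these ethephon values, and differences in the fall are given further on as a description.

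c21694_g1 had 2.23 and 1.90 CPM in HS, 3.37 and 2.86 in MS and 2.03 and 1.05 in LS under water, and 1.01 and 1.15, 1.25 and 1.04, and 0.209 and 0.354 after ethephon. HS and MS then overlapped and LS was lowest, with HS above LS by 2.07 ± 0.44 (adjusted p = 0.00457, edgeR). MS was above LS by 2.00 ± 0.43, with an adjusted p of 0.00504 that just misses the threshold. Under water the differences from LS were 0.62 ± 0.33 for HS (adjusted p = 0.176) and 1.16 ± 0.33 for MS (adjusted p = 0.0209, edgeR).

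c96280_g1 had 5.97 and 7.82 CPM in HS, 13.4 and 13.7 in MS and 10.8 and 12.5 in LS under water. After ethephon it had 3.61 and 3.88 in HS, 8.55 and 7.31 in MS and 2.26 and 1.01 in LS. LS thus went from the middle of the 3 cultivars to the lowest, and MS was above LS by 2.24 ± 0.30 after ethephon (adjusted p = 0.000327, edgeR) against 0.36 ± 0.27 under water (adjusted p = 0.339).

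The close pair went the other way. Both were highest in LS after ethephon, and MS was under LS by -1.47 ± 0.21 for c97264_g4 (adjusted p = 0.000428) and by -1.38 ± 0.22 for c82784_g1 (adjusted p = 0.000793, edgeR). Under water MS was already under LS, by -0.86 ± 0.20 and -0.89 ± 0.21 (adjusted p = 0.00767 and 0.00765, edgeR), short of the threshold. In CPM, c97264_g4 had 6.52 and 8.70 in MS and 19.3 and 22.0 in LS after ethephon, and c82784_g1 had 4.90 and 7.03 and 13.2 and 17.3.

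**Figure D5:**
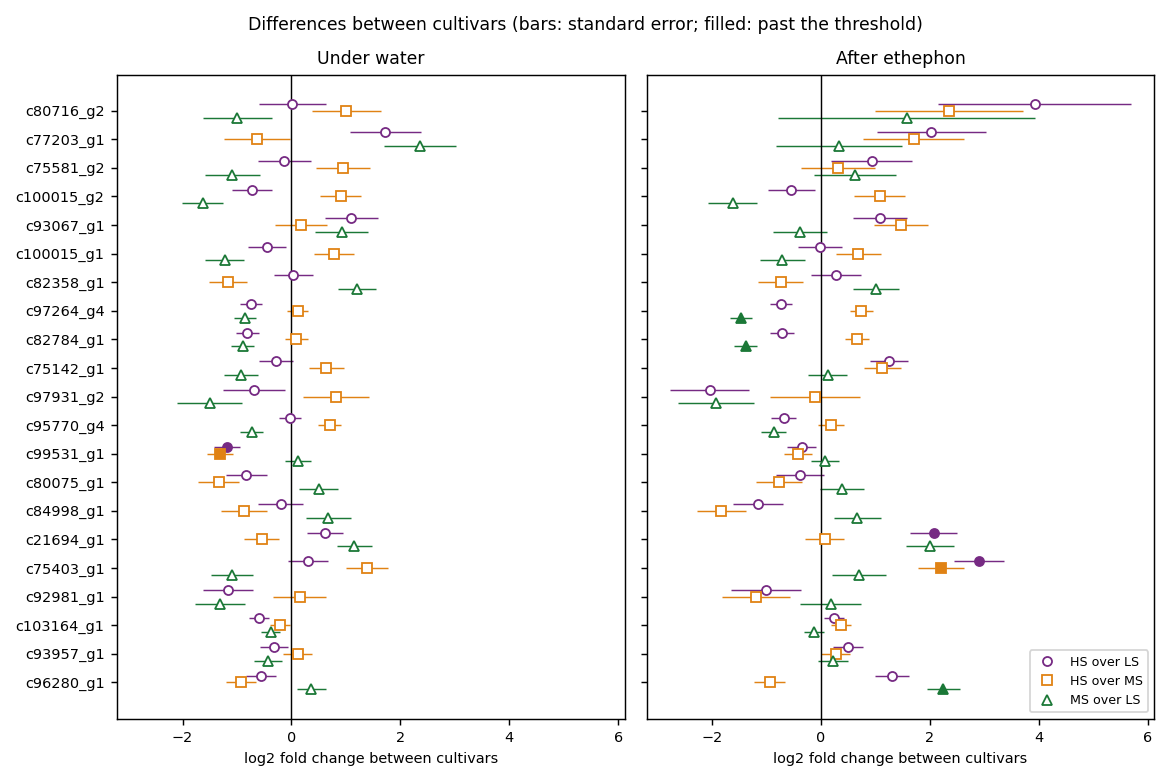
Fitted log2 fold change between cultivars for the 21 unigenes under water (left) and after ethephon (right), for HS over LS (circles), HS over MS (squares) and MS over LS (triangles), with standard errors as bars and filled symbols past the threshold. Under water only c99531_g1 has filled symbols, and after ethephon the filled symbols belong to c75403_g1, c21694_g1, c96280_g1, c97264_g4 and c82784_g1.

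Differences between cultivars in the size of the fall rest on the contrasts that chose the members and are given as a description. With edgeR, 0 members were called in LS against HS, LS against MS and MS against HS, where the shares over all unigenes were 0.0386%, 0.351% and 0%. At an unadjusted p under 0.05 the counts were 6, 2 and 2, beside 11.7%, 13.6% and 5.84% of all unigenes, and DESeq2 called 2, 1 and 0, beside 1.48%, 2.11% and 0.0882%. The 2 that DESeq2 called, with a deeper fall in LS than in HS, were c75403_g1 and c96280_g1, and the 1 called in LS against MS was c96280_g1.

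Neighbouring sequence did not always follow. The 21 members came from 20 Trinity components, which hold 19 other unigenes, and 9 members were alone in theirs. Of the 19, only 4 reached 1 CPM under water in all cultivars, and 3 of these (c95770_g3, c97264_g2 and c97264_g5) had a lower mean after ethephon in each cultivar. The fourth, c75581_g1, had means of 4.43 and 3.98 CPM (water and ethephon) in HS, 5.52 and 4.32 in MS and 2.22 and 2.36 in LS, beside 9.51 and 0.80, 5.16 and 0.74, and 11.97 and 0.45 for the member c75581_g2. The 2 unigenes of that component therefore had very different profiles. c97264_g5 had means of 3.22 and 0.82 CPM in HS, 2.92 and 0.50 in MS and 2.57 and 1.31 in LS, and did not meet the rule.

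The level in FPKM gave nearly the same percent of water as CPM for most members, but not for all. c95770_g4 in MS was at 52.1% of water in CPM and 75.3% in FPKM, and c93957_g1 in MS was at 51.8% and 39.7%. The part of isoform length in this was not tested. With FPKM in place of CPM in the rule, 28 unigenes met it and 15 of the 21 were among them. The 6 that were not were c82358_g1, c97931_g2, c95770_g4, c99531_g1, c92981_g1 and c96280_g1.

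For context, 34 unigenes with a named function were read in the same model. The names come from the text of the study. The study chose them on these samples, so their direction is no independent evidence. None of them met the rule. With edgeR, 0 of the 34 were called in HS and 0 in MS, at a share of 0.011% and 0.00184% over all unigenes. In LS 4 were called higher, against 1.91% of all unigenes, and 0 lower, against 0.321%. The 4 were the sucrose phosphatase unigene c91176_g1, an enzyme of the last step of sucrose synthesis (1.51 ± 0.22 on the log2 scale), and 3 of the 4 membrane ATPase unigenes, c79387_g1 (2.91 ± 0.40), c87456_g3 (4.44 ± 0.70) and c87964_g1 (3.09 ± 0.21).

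For the mean over cultivars the same 3 ATPase unigenes were called higher and 1 unigene, c101169_g3, was called lower (-1.16 ± 0.17, adjusted p = 0.0033). The study's text names c101169_g3 in one place as a cellulose synthase, an enzyme of cell wall synthesis, and in another as a transcription factor. It was counted here with the transcription factors, and the tables do not settle its function. c101169_g3 had 2.73 and 3.33 CPM under water in HS, 3.03 and 2.44 in MS and 10.1 and 16.7 in LS, and 1.98 and 1.68, 0.647 and 0.835, and 8.62 and 5.92 after ethephon. It separated within each cultivar without reaching the ratio of 1.5 in all of them. The 7 sucrose cleavage unigenes, the invertase group that splits sucrose into hexoses, had 0 calls in each of these contrasts, as had the 5 starch and glucan synthesis (a list without c101169_g3), the 4 pectin enzyme and the 3 annotated transcription factor unigenes. The pectin enzyme unigenes were lower all the same, with median fitted log2 fold changes of -0.33 in HS, -1.22 in MS and -1.04 in LS. In the same order the medians were -0.02, 0.13 and 0.52 for sucrose cleavage and -0.07, 0.21 and -0.18 for starch and glucan synthesis. They were 0.17, 0.14 and 0.18 for the annotated transcription factors.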

How the data were processed

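RNA of developing stalk from 12 libraries was analysed. To make the expected counts, the authors trimmed reads, built a Trinity assembly, kept 1 longest transcript per subcomponent and estimated counts for it with RSEM (version not given in the sources used here). The FPKM values were deposited beside them, scaled by the authors by length and mapped fragments. The labels and the paper differ on the number of technical replicates, which had been merged before deposit.

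The CPM minimum was read as holding in each cultivar. Expected counts were rounded, filtered (filterByExpr, minimum count 10) and scaled by TMM (0.919 to 1.09), and all 12 libraries were fitted in 1 model with 6 groups, with edgeR 4.0.16 in R 4.3.3. A unigene was called at a Benjamini-Hochberg adjusted p under 0.005 and a fold change over 2, over the 54433 tested unigenes, among them all 21 members. The SE is the log2 fold change divided by the square root of F. Members and lists were chosen with earlier results of these data known. Named were the 10 members of highest rank, the 5 most abundant under water by CPM, those called between cultivars or with the 5 smallest adjusted p in LS, members sharing a component, unigenes at the limits, and called list unigenes. Further members are named to account for all 21. Scripts were tested on simulated data.

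Alternatives were DESeq2 1.42.0 (size factors, Wald test), limma 3.58.1 on log2(FPKM + 1), every unigene with at least 1 count, a looser threshold, a replicate block, each library left out, and for the rule TMM-scaled CPM, FPKM, a ratio of 2, a minimum of 5 CPM, 1 added and counts summed per component. The crossed block and the rule on group means were chosen after seeing the data. With totals of 19765594 to 28747056 counts, members near 1 CPM rest on few reads, and the part of counting error in their spread was not tested.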

Additional observations from a re-analysis of the deposited data

Results flagged for a closer look

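Among the members and the unigenes with a named function, edgeR called 1 difference between cultivars in the ethephon effect. The ethephon effect on c87964_g1, a membrane ATPase unigene that is no member, was 2.27 ± 0.30 (SE) larger in LS than in MS on the log2 scale (edgeR interaction contrast, adjusted p = 0.00433), with 9.92 and 9.15 CPM under water and 87.1 and 66.5 after ethephon in LS, and 3.62 and 3.56 against 7.21 and 6.23 in MS. The study chose this unigene on these samples, so the contrast is a description and no independent test. DESeq2 called the members c75403_g1 and c96280_g1 in such contrasts, as given above with the shares over all unigenes. Over all tested unigenes, edgeR called 191 (0.351%) in the same contrast, so c87964_g1 was not the only one called there. No group has enough libraries to look for a single outlying one.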

How the results depend on the processing

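Members lower after ethephon numbered 0 in HS, 0 in MS, 8 in LS and 19 for the mean. DESeq2's Wald test gave 6 in HS, 12 in MS and 14 in LS (0.0459%, 0.524% and 1.02% of all unigenes), every unigene with at least 1 count gave 12, 16 and 18 (0.0849%, 0.615% and 0.579%), and an adjusted p under 0.05 with no fold limit gave 6 in MS and 17 in LS (0.187% and 3.26%). limma on log2(FPKM + 1) gave 11 for the mean (0.0772%). With 1 library left out, fewer members were called in LS and for the mean, as were fewer of all unigenes. The counts of members differing between cultivars were 1 (HS and LS), 1 (HS and MS) and 0 (MS and LS) under water, and 2, 1 and 3 after ethephon. DESeq2 gave 2 and 2 for the last 2 under water and 4 and 5 for HS and LS and for MS and LS after ethephon, where 11.5 to 15.3% of all unigenes were called. limma gave 0, 0 and 1 under water and 1 and 0 for the first 2 after ethephon, where 8.41 to 13.4% of all unigenes were called. Every unigene with at least 1 count gave 3, 4 and 6 under water and 9, 5 and 6 after ethephon, where 6.6 to 9.4% of all unigenes were called, and the looser threshold 4, 6 and 9, and 8, 7 and 6, where 26.3 to 35.9% were. Leaving out 1 of the compared libraries lowered the share of all unigenes called in each of these comparisons, and some of the member calls changed too. DESeq2's size factors in edgeR moved no count by over 1.5 times. The causes were not tested.

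The labels give no shared source for equal replicate numbers. Correlations of replicate differences ran from 0.24 to 0.38 among HS_CK, HS_T and MS_CK and from -0.17 to 0.0998 in the other 12 pairs of groups, so the numbers were not taken as pairing the samples, although those 3 groups deviated together. With the replicate block, 1 member was called lower in MS, 11 in LS and 19 for the mean, beside 0.00735%, 0.321% and 0.208% of all unigenes. In that fit 2 members differed between HS and MS under water and 1 between HS and LS after ethephon, beside 9.45% and 15.2%. With the MS_T numbers crossed, since MS_CK and MS_T correlated at -0.11, the block called 1 member lower in MS and 20 for the mean. The shares over all unigenes were 0.0184% and 0.261%.

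The rule was met by 21 unigenes, by 20 with TMM-scaled CPM (18 shared), 28 with FPKM (15 shared), 4 with a ratio of 2, 8 with a minimum of 5 CPM, 11 with 1 added, 18 components when counts were summed, 159 on group means and 21 to 46 with each library left out, most without HS_CK replicate 1. Leaving out a library can only keep or raise the number, so the last range does not show that the list is stable. The median log2 change in the cultivar not used was -0.70 in HS, -1.04 in MS and -2.45 in LS with a ratio of 2, -0.40 in MS and -0.97 in LS with FPKM, and -1.14 in LS with 1 added. With each library left out it ran from -0.54 to -0.30 in HS, -0.82 to -0.47 in MS and -1.68 to -0.48 in LS, the last without HS_CK replicate 1. None of these medians changed sign. With 2 libraries per group, a difference that edgeR did not call is not shown to be absent.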
